A study of Rattus norvegicus with 40 samples.

Results

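Male rats whose mothers ate chow with 750 ppm lead acetate around the time of birth were compared with unexposed males through the RNA of the hippocampus. The comparison took the 4 arrays titled 3444 to 3447 (males, perinatal exposure, 750 ppm) against the 4 arrays titled 1970 to 1973 (males on control chow, 0 ppm), which makes 8 of the 40 arrays of the series. Each array held the RNA of 1 hippocampal sample, labelled from 100 ng, taken when the animals were killed on postnatal day 55. For the exposed males the dams received the lead chow from 10 days before breeding, and the pups were moved to control chow at weaning, so that no lead was fed for the weeks before the tissue was taken. Control males never received lead. Further groups of 4 arrays served as points of comparison, namely males exposed perinatally to 250 ppm, males exposed to 750 ppm from birth to postnatal day 45, and females with the same perinatal 750 ppm exposure or with control chow. Strain, blood lead and litter are not given in the sources used here. Since littermates may stand behind the 4 samples on either side, the p-values measure only the spread between samples. That spread was estimated within groups over all 40 arrays of the series, not from these 8 alone.

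Lead is a neurotoxic metal that resembles calcium to many proteins, blocks NMDA receptors and enters the developing brain readily. The hippocampus, which serves learning and spatial memory, answers neuronal firing by transcribing immediate-early genes such as Fos, Egr1 and Arc within minutes. Proteins made for membranes and synapses are folded in the endoplasmic reticulum (ER) by chaperones such as Hspa5, whose genes respond to the unfolded protein load. Vessels, meninges and the choroid plexus, which secretes cerebrospinal fluid, lie next to the hippocampal tissue, and their cells enter a dissection in varying amounts.

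The values were log2 signals of 29214 probe sets, the array's units of measurement, of which 15310 carried 1 gene symbol. Array medians of the 8 arrays lay between 7.0 and 7.06, and pairs of arrays correlated at 0.9906 to 0.9965 across probe sets. The median SD of a probe set was 0.119 in exposed males and 0.114 in control males (n = 4 each). Of 12 markers of excitatory neurons and hippocampal regions, 7 had a difference above 0 and 5 below, with a median of 0.02 and no call. Slc17a7, the glutamate transporter of cortical and hippocampal excitatory neurons, averaged 12.60 in exposed and 12.58 in control males, and Prox1, a dentate granule cell factor, averaged 9.81 in exposed and 9.77 in control males. Calb1, the calbindin of granule cells, averaged 9.63 in exposed and 9.82 in control males, without overlap and as the only one of the 12 with an unadjusted p under 0.05 (adjusted p = 0.469). A pair of arrays stood apart. Exposed replicate 1 had a flattened range of signal, with a slope 0.0325 below 1 against the mean array, where the other 7 arrays ran from 0.0132 below 1 to 0.0025 above it. The array labelled control male replicate 4 read 11.69 for Eif2s3, an X-linked gene, within the 11.62 to 11.77 of the exposed female arrays and above the 11.15 to 11.42 of the exposed male arrays, so its sex label is in doubt. Title numbers ran together with the groups, so anything that went with the numbers cannot be told apart from exposure. The labels do not say what the numbers stand for.

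Few probe sets separated exposed from control males. With a mean fitted for each of the 10 groups and p-values adjusted over all probe sets (limma, Benjamini-Hochberg, called at an adjusted p under 0.05), 17 probe sets were called, or 0.0582% of those tested. Of these, 6 were higher (0.0205%) and 11 lower (0.0377%) in exposed males. A gene symbol was carried by 12, 5 higher and 7 lower, which is 0.0827% of the 14506 genes tested. The 4 exposed values lay clear of the 4 control values for 13 of the 17, as they did above the controls for 2.27% and below them for 1.31% of all probe sets. At an unadjusted p under 0.05 there were 2270 probe sets, or 7.77% of those tested. A fit of the 8 compared arrays alone made fewer calls, as given further below. The calls rested on few arrays. There were 4 calls without exposed replicate 1 and 8 without the array labelled control male replicate 4. Leaving out any other of the 8 arrays but exposed replicate 3 gave 6 to 10, and leaving out replicate 3 gave 22. The 3 arrays of the series treated as flattened were exposed replicate 1 and replicates 1 and 3 of the males at perinatal 250 ppm. The latter enter this comparison only through the shared estimate of spread. Without the 3 flattened arrays limma made 0 calls, with 1743 probe sets at an unadjusted p under 0.05.

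Tmem176b, a membrane protein gene known from dendritic cells, had the smallest p. Its signal was 10.67, 10.77, 10.88 and 10.73 in exposed males, against 11.10, 11.05, 11.24 and 11.17 in control males. All 4 exposed values lay below those of the other 36 arrays of the series, which ran from 10.90 to 11.24. Only 2 probe sets (0.00685%) lay below all other arrays in this way, and 2 (0.00685%) above them. It fell by 0.37 on the log2 scale (SE 0.056, adjusted p = 0.00325), a ratio of 0.772. Without the 3 flattened arrays the difference was -0.34 with an adjusted p of 0.0553.

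The other named genes that fell without overlap were Fbln2, Cd93, Id1 and Zfp36l1. Fbln2, which encodes the matrix glycoprotein fibulin 2, read 7.27, 7.95, 7.04 and 7.34 in exposed males, against 8.77, 8.22, 8.44 and 8.31 in control males. The groups did not overlap, and the difference of -1.03 (SE 0.17, adjusted p = 0.00684) is a ratio of 0.488. Cd93, a surface lectin of endothelial cells, read 7.21, 7.47, 7.68 and 7.47 in exposed males, against 8.0, 7.95, 8.14 and 8.04 in control males. All exposed values were again the lower ones (-0.57, SE 0.11, adjusted p = 0.0140). Id1, a bone morphogenetic protein (BMP) target that blocks basic helix-loop-helix factors, read 7.34, 7.39, 7.54 and 7.21 in exposed males, against 7.70, 7.80, 7.78 and 7.70 in control males. Its groups lay apart as well (-0.38, SE 0.075, adjusted p = 0.0285). Zfp36l1 encodes a zinc finger protein that binds AU-rich elements and speeds the decay of mRNAs. It read 9.20, 9.24, 9.36 and 9.31 in exposed males, against 9.69, 9.61, 9.61 and 9.69 in control males, with no overlap (-0.37, SE 0.065, adjusted p = 0.0113).

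The named genes that rose were Ldaf1, B3gnt4, Gldn, Tfcp2l1 and Plekhg5. Ldaf1, a partner of seipin in lipid droplet assembly, read 8.66, 8.69, 8.75 and 9.02 in exposed males, against 8.29, 7.88, 8.29 and 8.09 in control males, a difference of 0.64 (SE 0.13, adjusted p = 0.0285). The other exposures, set against the same control arrays, gave 1.07 in males at perinatal 250 ppm and 0.99 in males at postnatal 750 ppm, so the exposed males were not the highest group. Female controls, with a mean of 8.15, were as low as control males, with 8.14, while the means of all 8 exposed groups lay between 8.42 and 9.21. Gldn, which encodes gliomedin, a protein that gathers sodium channels at nodes of Ranvier in peripheral nerve, read 7.55, 7.64, 7.41 and 7.50 in exposed males, against 7.25, 7.02, 7.02 and 6.83 in control males (0.50, SE 0.091, adjusted p = 0.0140). Tfcp2l1, a grainyhead-family transcription factor, was higher by 0.37 (SE 0.075, adjusted p = 0.0353) and Plekhg5, a guanine nucleotide exchange factor, by 0.31 (SE 0.060, adjusted p = 0.0280), both without overlap. For Tfcp2l1 too the controls had the lowest means, 6.71 in males and 6.63 in females. The means of all 8 exposed groups lay between 6.80 and 7.08, the highest being that of the exposed males. The probe sets without a symbol were 10724341 (-1.50), 10813150 (-0.88), 10761897 (-0.42) and 10759636 (-0.36) below, and 10718817 (0.30) above, with adjusted p from 0.00684 to 0.0285. Of these, 10724341 was dim, with 3.61 to 4.08 in exposed and 5.03 to 5.54 in control males. So was 10813150, with 4.33 to 4.84 in exposed and 5.36 to 5.73 in control males, where array medians were 7.0 to 7.06.

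**Figure D1:**
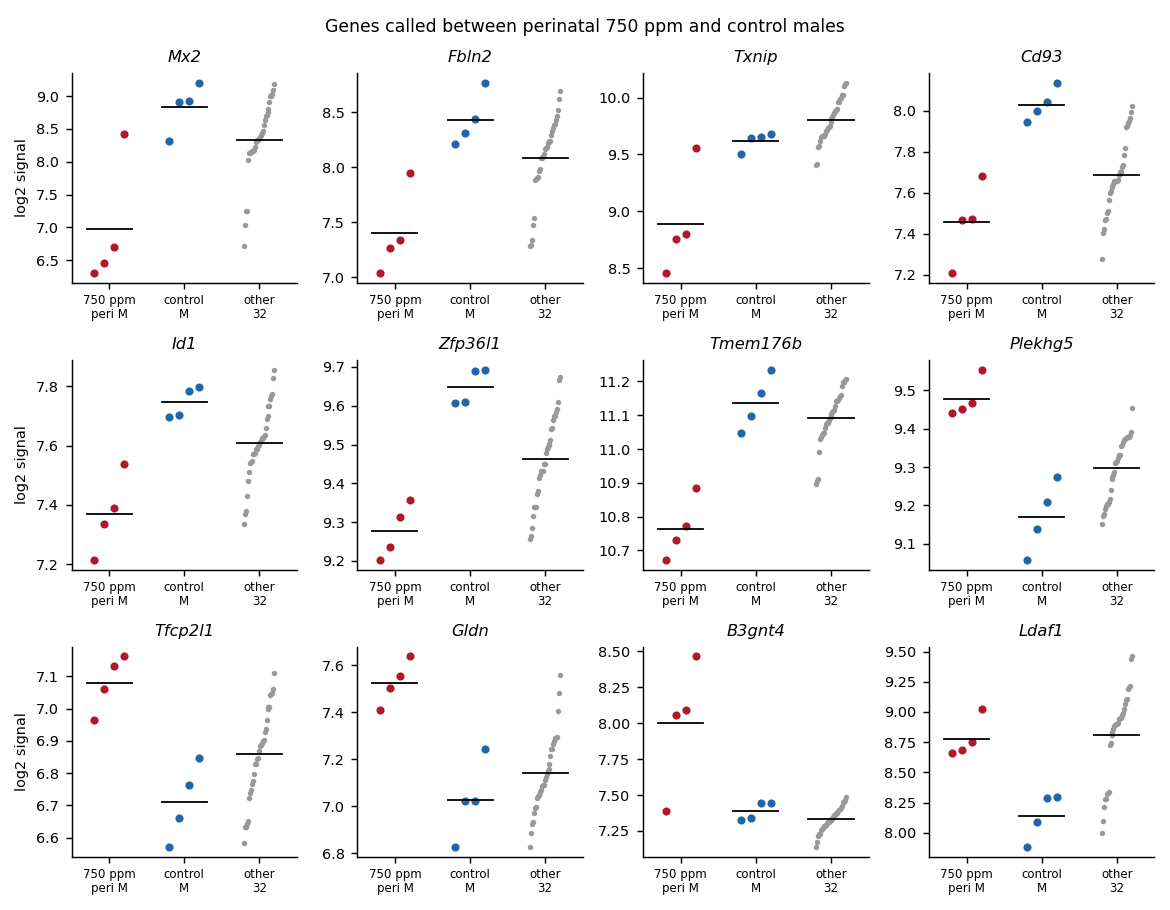
Log2 signal (y axis) of the 12 called genes with a symbol in perinatal 750 ppm males (red), control males (blue) and the other 32 arrays (grey); each point is 1 array and the line is the group mean. Red and blue points are clear of each other for all but Mx2, Txnip and B3gnt4, and for Tmem176b all 4 red points lie below every other array.

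Among the genes whose groups overlapped, the same 3 exposed arrays departed from the rest of the series and exposed replicate 3 did not. B3gnt4, an enzyme that extends poly-N-acetyllactosamine chains on glycans, read 8.47, 8.06, 7.39 and 8.09 in exposed males, against 7.33, 7.45, 7.45 and 7.34 in control males (0.61, SE 0.11, adjusted p = 0.0140). The other 36 arrays ran from 7.14 to 7.49, so exposed replicates 1, 2 and 4 lay above all of them and replicate 3 within. The SD of B3gnt4 was 0.448 in exposed and 0.064 in control males, while its SE drew on a spread shared over all groups. Lrrc43, the gene next to B3gnt4 in the GRCr8 annotation, read 7.07, 6.60, 6.04 and 7.12 in exposed males, against 6.34, 6.19, 6.04 and 6.16 in control males. The same 3 exposed arrays were above the 5.74 to 6.34 of the other 36, with a difference of 0.53 that was not called (adjusted p = 0.210). Txnip, which encodes the thioredoxin-interacting protein, a brake on glucose uptake, read 8.45, 8.80, 9.55 and 8.75 in exposed males, against 9.50, 9.65, 9.68 and 9.65 in control males (-0.73, SE 0.15, adjusted p = 0.0353). Here the 3 arrays lay below the range of all others, 9.40 to 10.13. The unnamed probe set 10761897 read 8.50, 8.37, 9.09 and 8.65 in exposed males, against 9.14, 9.11, 8.93 and 9.11 in control males, with the others between 8.83 and 9.19. Mx2, an interferon-induced GTPase, read 6.30, 6.46, 8.42 and 6.71 in exposed males, against 8.32, 9.20, 8.92 and 8.90 in control males (-1.86, SE 0.35, adjusted p = 0.0157). Its lowest value among the other 36 arrays, 6.71, came close to that of exposed replicate 4, so Mx2 also varied elsewhere in the series. Over 18 settings of the fit, most of them leaving out arrays, B3gnt4 was called in 8, with differences of 0.44 to 0.81 and limma adjusted p of 1.56e-07 to 0.727. Txnip was called in 4 of the 18 (-0.95 to -0.57, adjusted p up to 0.603) and Mx2 in 7 (-2.35 to -1.59, adjusted p up to 0.394).

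**Figure D2:**
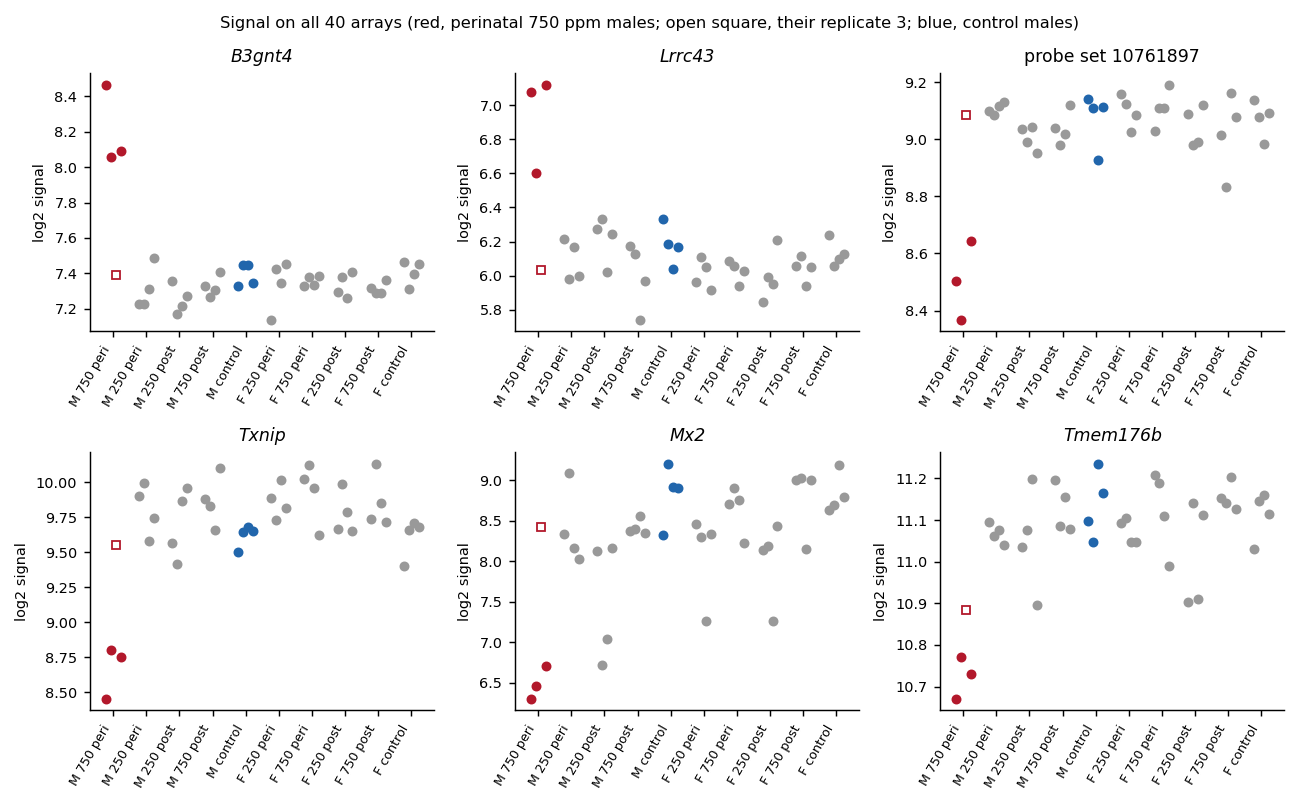
Log2 signal (y axis) on all 40 arrays by group (x axis; M and F, sex label; 250 and 750, ppm lead; peri and post, exposure window) for B3gnt4, Lrrc43, probe set 10761897, Txnip, Mx2 and Tmem176b; each point is 1 array. Perinatal 750 ppm male replicates 1, 2 and 4 (red points) stand clear of all other arrays for B3gnt4, Lrrc43, probe set 10761897 and Txnip, while replicate 3 (open square) lies among them; for Mx2 replicate 4 sits level with another array at 6.71; for Tmem176b all 4 lie at the bottom.

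Dose was asked with males exposed perinatally to 250 ppm and window with males exposed postnatally to 750 ppm, comparisons that hold no control array but share the 4 exposed arrays with the one above. Against 250 ppm, 12 probe sets were called (0.0411%), 5 higher (0.0171%) and 7 lower (0.024%). Single arrays moved the count against 250 ppm, to 4, 21 and 3 without 250 ppm replicates 1, 2 and 3, and to 7 and 4 without exposed replicates 2 and 4. Against postnatal exposure, 51 were called (0.175%), 18 higher (0.0616%) and 33 lower (0.113%). Tmem176b, B3gnt4, Txnip and probe set 10761897 were called in all 3 comparisons. For Tmem176b the difference was -0.30 against 250 ppm (adjusted p = 0.0185) and -0.37 against postnatal exposure (adjusted p = 0.00122). For B3gnt4 it was 0.69 against 250 ppm (adjusted p = 0.00543) and 0.67 against postnatal exposure (adjusted p = 0.00379). For Txnip it was -0.91 against 250 ppm (adjusted p = 0.00543) and -0.98 against postnatal exposure (adjusted p = 0.00122). Fbln2 (-0.95, adjusted p = 0.0171) and Gldn (0.48, adjusted p = 0.0211) were called against 250 ppm, and Id1 (-0.37, adjusted p = 0.0248) against postnatal exposure. Ldaf1, Tfcp2l1, Plekhg5 and Mx2 were called neither against 250 ppm nor against postnatal exposure, and Ldaf1 was lower in the exposed males in both. Cd93 and Zfp36l1 were likewise called in neither comparison. Cd93 differed by -0.18 against 250 ppm and -0.44 against postnatal exposure, and Zfp36l1 by -0.14 against 250 ppm and -0.24 against postnatal exposure.

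Other genes were called by dose or window without a call against controls. Against 250 ppm, Ldah, a lipid-droplet hydrolase, rose by 0.67, Commd6 by 0.68 and Epm2a, the glycogen phosphatase laforin, by 0.61, while Tmem63a, a mechanosensitive channel, fell by 0.82 and Mamdc2 fell by 0.64. Against control males Ldah differed by -0.04, Commd6 by 0.40, Epm2a by 0.27, Tmem63a by -0.16 and Mamdc2 by -0.20, none of them called. Against postnatal exposure, Fcrl2 rose by 1.20, Vom2r44, a vomeronasal receptor gene, by 0.76, Lrrc43 by 0.71 and Sprn, which encodes the prion-like protein shadoo, by 0.61. Alas2, the heme synthesis enzyme of red cells, fell by 0.94, C18h5orf63 fell by 0.75 and Btg1, an antiproliferative adaptor of mRNA deadenylation, fell by 0.25. The count against postnatal exposure turned on single arrays, with 15, 327, 80 and 18 calls without exposed replicates 1, 2, 3 and 4, and 17 to 23 without any one postnatal array.

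**Figure D3:**
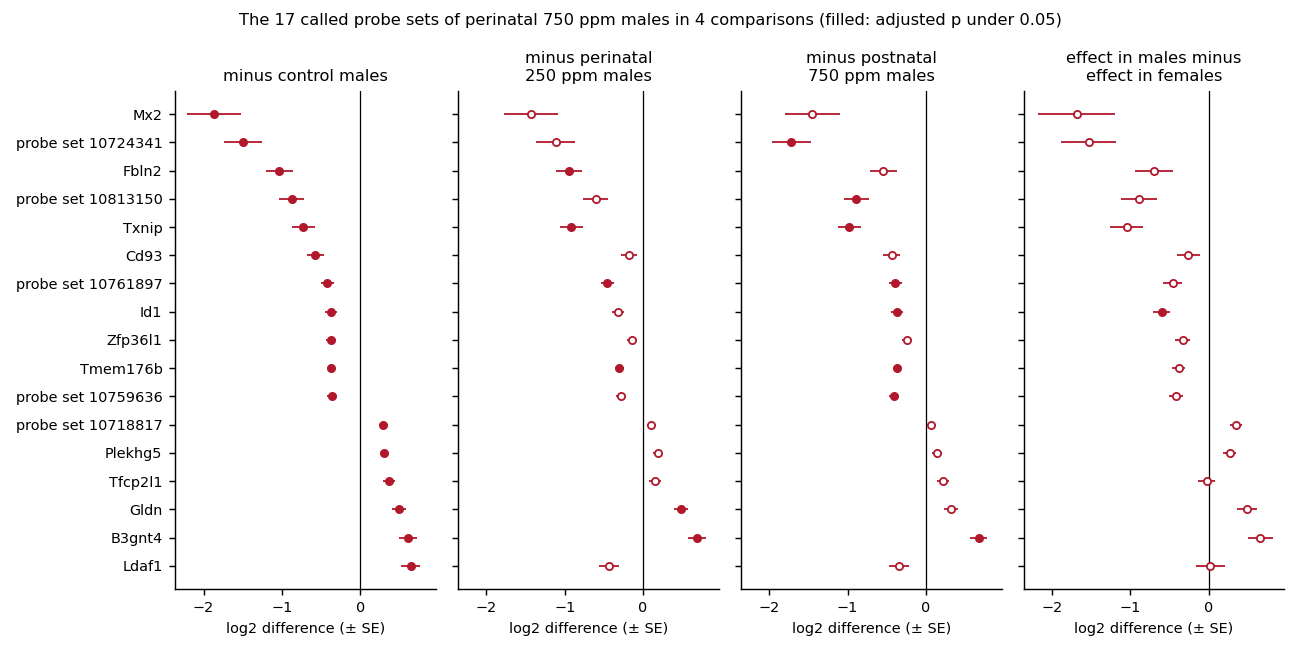
Log2 difference ± SE (x axis) of the 17 called probe sets (y axis) for perinatal 750 ppm males minus control males, minus perinatal 250 ppm males, minus postnatal 750 ppm males, and for the effect in males minus that in females; filled points have an adjusted p under 0.05. Tmem176b, B3gnt4, Txnip and probe set 10761897 are filled in the first 3 panels, Id1 alone is filled in the last, and Ldaf1, at 0.64 against control males, lies below 0 in the dose and window panels.

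Transcription factors induced by neuronal activity lay lower in exposed males without a single call. All 15 measured members of the list had a difference below 0, as did 44.6% of all genes, with a median of -0.31 where the median of all genes was 0.01. The groups did not overlap, with exposed values lower, for 9 of the 15, as for 1.61% of all genes, and 10 had an unadjusted p under 0.05 in that direction, as had 3.79% of all genes. Fos, a subunit of the AP-1 factor, read 7.42, 7.16, 7.41 and 6.60 in exposed males, against 8.23, 7.91, 7.92 and 8.07 in control males (-0.88, SE 0.21, adjusted p = 0.136). Nr4a1, an orphan nuclear receptor, read 8.96, 9.32, 9.24 and 8.87 in exposed males, against 9.96, 9.59, 9.49 and 9.85 in control males (-0.62, SE 0.17, adjusted p = 0.238). In both genes every exposed array was under every control array. Egr1, a zinc finger factor, differed by -0.41, Egr2 by -0.58, Junb by -0.51 and Npas4, a factor that adjusts inhibitory synapses, by -1.16, all without overlap and none called. Egr3 and Fosl2, at -0.002 and -0.03, had the smallest differences.

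The promoters of Egr1 and Nr4a1 are shown because they differ in their letter matches to elements through which calcium and kinase signals can act. Of the 15 members, 10 had a promoter in the RefSeq table (GRCr8), read here over the 250 bases before the start. The core of the cAMP response element, TGACG on either strand, was found in 7 of the 10, against 23.3% of the 11968 promoters of measured genes. It was also found in 10 of 16 ER chaperone and 9 of 11 cytosolic heat shock promoters, so it is not particular to this list. The serum response element (CArG box) was found in 2 of the 10, Egr1 and Egr2, against 1.18% of all. The members were chosen for their known regulation, so a shared element is no result of the arrays, and a missing match says only that the letters are not in this window. Capitals mark the matches.
Egr1, GRCr8 chr18:26736828-26737077, plus strand, 2 core sites and 2 CArG boxes: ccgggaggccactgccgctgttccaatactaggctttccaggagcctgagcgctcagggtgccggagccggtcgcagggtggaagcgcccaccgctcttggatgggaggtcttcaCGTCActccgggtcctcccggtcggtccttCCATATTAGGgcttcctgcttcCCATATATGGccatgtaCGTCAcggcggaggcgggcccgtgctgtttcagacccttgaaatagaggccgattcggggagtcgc
Nr4a1, GRCr8 chr7:134259888-134260137, plus strand, 4 core sites and 0 CArG boxes: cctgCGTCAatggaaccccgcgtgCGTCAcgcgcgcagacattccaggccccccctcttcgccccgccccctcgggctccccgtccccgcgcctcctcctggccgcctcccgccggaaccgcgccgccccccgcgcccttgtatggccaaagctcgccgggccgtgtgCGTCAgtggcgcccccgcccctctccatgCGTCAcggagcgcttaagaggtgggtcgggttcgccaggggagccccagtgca

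Across the series the control males had the highest level of these factors among male groups. The mean over the 15 genes was 8.62, 8.63, 8.72 and 8.37 in exposed males, against 9.04, 9.0, 8.91 and 8.88 in control males. It ran from 8.47 to 8.72 in males at perinatal 250 ppm and from 8.47 to 8.82 in males at postnatal 750 ppm, alongside the exposed males and below every control male. The median difference was -0.02 against perinatal 250 ppm and -0.03 against postnatal 750 ppm. In females the perinatal 750 ppm arrays ran from 8.65 to 8.74 and the female controls from 8.54 to 8.96. All 15 members were also below 0 without the 3 mismatched controls (median -0.38) and without the 3 flattened arrays (median -0.28).

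Downstream effectors of activity moved less evenly. Of 16 measured, 12 lay below 0 (44.6% of all genes) and 4 above, with a median of -0.03, and none was called. Exposed values lay below all control values for 3, as for 1.61% of all genes. Arc, a synaptic capsid-like protein that removes AMPA receptors, read 10.02, 10.31, 10.14 and 9.91 in exposed males, against 10.78, 10.67, 10.56 and 10.67 in control males. The groups lay apart, and the difference of -0.58 had an adjusted p of 0.0913. The phosphatases of MAP kinases Dusp1 (-0.88) and Dusp6 (-0.31) did not overlap either, and Sik1, a salt-inducible kinase, differed by -0.40. Bdnf, the neurotrophin, differed by -0.03 and Homer1, the postsynaptic scaffold, was likewise not called.

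ER chaperones and genes of the unfolded protein response all had differences below 0, and none was called. The 19 measured members had a median of -0.14, where 44.6% of all genes lay below 0. Exposed values lay below all control values for 7, as for 1.61% of all genes, and 13 had an unadjusted p under 0.05 in that direction, as had 3.79% of all genes. Pdia6, a disulfide isomerase, read 9.51, 9.69, 9.69 and 9.60 in exposed males, against 9.90, 9.85, 10.06 and 9.93 in control males (-0.31, SE 0.074, adjusted p = 0.136). Hspa5, the chief Hsp70 of the ER, read 11.67, 11.85, 11.93 and 11.83 in exposed males, against 11.99, 12.03, 12.26 and 12.05 in control males (-0.26, SE 0.076, adjusted p = 0.264). In both genes the groups lay apart. Dnajc3, an ER co-chaperone that restrains the kinase PERK, differed by -0.31, Pdia4 by -0.34, Sdf2l1 by -0.36 and the calcium-binding chaperone Calr by -0.16. Exposed replicate 1, the flattened array, was the lowest of the 8 for each of these 6 genes. Without the 3 flattened arrays 19 of 19 were still below 0, with a median of -0.11 and 7 at an unadjusted p under 0.05. The median difference was -0.07 against perinatal 250 ppm and -0.10 against postnatal 750 ppm, and in females it was -0.01 against their own controls. The cytosolic heat shock proteins lay below 0 in 13 of 13 with a median of -0.09, and Hspb1 (-0.67, adjusted p = 0.361) had the only unadjusted p under 0.05 among them. Without the 3 flattened arrays 10 of these 13 lay below 0.

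The ER stress response element, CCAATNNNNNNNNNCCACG on either strand, was found in the 250 bases before the start of 7 of 16 chaperone promoters, against 0.125% of the 11968. Hspa5 and Dnajc3 hold 1 each and are shown for that, with the element in capitals. As above, the list was picked by pathway and the match is a description of sequence.
Hspa5, GRCr8 chr3:38452766-38453015, plus strand: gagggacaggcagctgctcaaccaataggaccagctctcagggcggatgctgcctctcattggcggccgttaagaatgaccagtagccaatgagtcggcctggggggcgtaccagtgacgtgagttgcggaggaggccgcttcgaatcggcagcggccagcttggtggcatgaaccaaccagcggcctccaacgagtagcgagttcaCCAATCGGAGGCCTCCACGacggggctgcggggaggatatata
Dnajc3, GRCr8 chr15:102432417-102432666, plus strand: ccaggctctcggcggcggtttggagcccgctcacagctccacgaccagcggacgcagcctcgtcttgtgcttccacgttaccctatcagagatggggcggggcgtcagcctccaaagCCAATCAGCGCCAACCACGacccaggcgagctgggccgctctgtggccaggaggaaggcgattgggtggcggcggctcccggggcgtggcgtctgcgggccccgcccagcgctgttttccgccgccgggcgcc

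**Figure D4:**
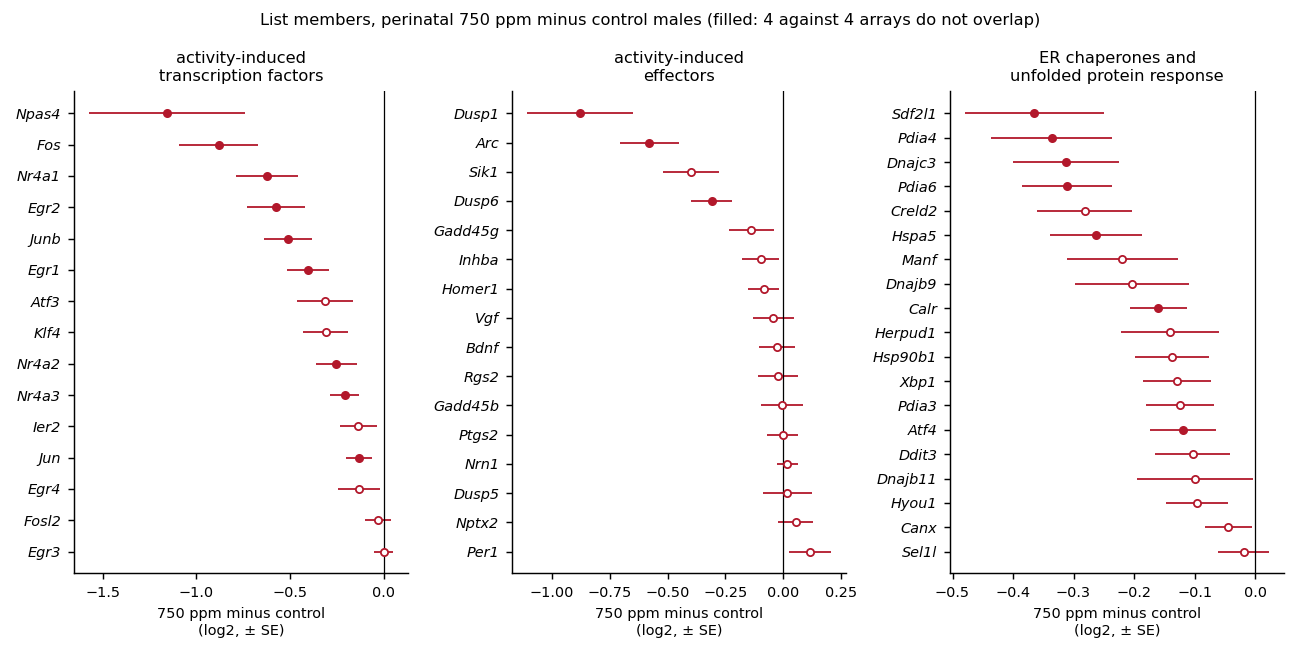
Log2 difference ± SE (x axis), perinatal 750 ppm males minus control males, for each measured member (y axis) of 3 lists; filled points mark genes whose 4 and 4 arrays do not overlap. All 15 transcription factors and all 19 ER genes lie left of 0, against 12 of 16 effectors, and no member was called.

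Most endothelial markers had differences below 0, with Cd93 as the only call. Of 17 measured, 15 lay below 0 (44.6% of all genes), with a median of -0.18. An unadjusted p under 0.05 in that direction was found for 8 (3.79% of all genes), and 5 did not overlap (1.61% of all genes). Kdr, the main receptor of vascular endothelial growth factor, read 6.90, 6.99, 7.16 and 7.02 in exposed males, against 7.43, 7.29, 7.34 and 7.47 in control males (-0.37, adjusted p = 0.275). Emcn differed by -0.38 and Egfl7 by -0.29, with exposed arrays lower throughout. The junction protein Cldn5 differed by -0.10, the cadherin Cdh5 by -0.03 and the adhesion molecule Pecam1 by 0.005, so the list was not uniformly lower. The mean over the list was 7.87 to 8.15 in exposed males and 8.21 to 8.29 in control males. In females the median of the list was 0.09 above that of their controls. In bulk tissue, fewer cells of a type and less RNA per cell cannot be told apart. Mural cell markers had 7 of 11 below 0, with a median of -0.14 and no call, and -0.07 without the 3 mismatched controls.

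Choroid plexus markers varied more within both groups than between them. Their mean was 6.58, 7.01, 8.59 and 8.25 in exposed males, against 9.78, 7.15, 9.93 and 7.19 in control males. All 12 lay below 0 (44.6% of all genes) with a median of -1.02, yet none had an unadjusted p under 0.05. Ttr, the transthyretin gene that marks the plexus, read 7.69, 10.29, 12.90 and 12.78 in exposed males, against 13.37, 10.97, 13.50 and 11.06 in control males. The groups overlapped between 10.97 and 12.90. Slc13a4, which marks meninges and plexus, ran from 8.28 to 8.66 in exposed males and from 7.67 to 10.36 in control males. The part of such neighbouring tissue in the lower Fbln2 and Cd93 was not tested. The matrix and meningeal fibroblast list had 13 of 17 below 0, median -0.07, with Fbln2 as its only call and only unadjusted p under 0.05.

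Interferon-induced genes had 14 of 16 below 0, with a median of -0.12 and Mx2 as the only call. Of all genes 44.6% lay below 0 and 0.0827% were called. Ifi44 read 6.74, 7.05, 7.08 and 7.09 in exposed males, against 7.34, 7.36, 7.58 and 7.41 in control males (-0.43, adjusted p = 0.234), and Irf7, the master regulator of interferon transcription, differed by -0.23. Both had exposed arrays lower without overlap, and they were the only 2 of the 16, against 1.61% of all genes. Oas1a (-0.41) and Usp18 (-0.59) overlapped, and Mx1 differed by -0.005. The regulators of mRNA decay had 7 of 9 below 0, median -0.16, with Zfp36l1 called. Its relative Zfp36l2 differed by -0.16, Btg1 by -0.18 (adjusted p = 0.202) and Tob1 by -0.19. Exposed values lay clear below the controls for 2 of the 9 and clear above them for 1. Of all genes 1.61% lay lower and 2.58% higher in this way. In the BMP and Id list 14 of 20 lay below 0, median -0.06. Besides Id1, the ligand Bmp2 read 6.04, 6.60, 6.35 and 5.90 in exposed males, against 6.81, 6.65, 6.74 and 6.63 in control males (-0.49, adjusted p = 0.210), while the ligand Bmp4 differed by 0.19. Their groups did not overlap, in opposite directions, as for 1.61% of all genes in the lower and 2.58% in the higher direction.

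Several synaptic lists and the myelin list had most differences above 0, other synaptic lists were mixed, and no member was called. Of all genes 55.4% had a difference above 0, 4.98% with an unadjusted p under 0.05 in that direction and 2.58% with exposed values clear above the controls. Synaptic vesicle genes were above 0 in 15 of 16 (median 0.03), AMPA and kainate receptor subunits in 9 of 9 (median 0.04) and calcium signalling kinases and channels in 19 of 21 (median 0.05). Postsynaptic scaffolds were above 0 in 8 of 13 (median 0.01), with an unadjusted p under 0.05 for 1 higher and 2 lower, and GABA-A receptor subunits in 5 of 9 (median 0.02), or 55.6%. Unc13a, which primes vesicles, differed by 0.12 and Grik5, a kainate receptor subunit, by 0.13. Of 14 myelin genes 12 lay above 0, with a median of 0.10. Mog, a myelin surface antigen, read 11.63, 11.60, 11.78 and 11.48 in exposed males, against 11.44, 11.33, 11.37 and 11.31 in control males (0.26, adjusted p = 0.451), and Cldn11, the claudin of myelin, differed by 0.20. Against perinatal 250 ppm the myelin list had a median of -0.19, so the exposed males lay between control males and the lower dose.

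None of the genes often studied in lead toxicology was called. The NMDA receptor subunit Grin1, the obligate one, read 11.22, 11.14, 11.15 and 11.22 in exposed males, against 11.08, 11.12, 11.04 and 11.11 in control males (adjusted p = 0.495). The groups lay apart by a narrow margin. Grin2a and Grin2b each differed by 0.02, Camk2a, the abundant kinase of the postsynaptic density, by 0.05, Gfap of astrocytes by -0.06, Alad, the heme enzyme that lead inhibits, by 0.05 and Hmox1 by 0.09. Mt1, a metallothionein that binds metals, read 10.58, 10.79, 10.59 and 10.73 in exposed males, against 10.40, 10.48, 10.29 and 10.47 in control males (0.26, adjusted p = 0.416), with every exposed array higher. Mt2A differed by 0.21 (adjusted p = 0.444). Of the antioxidant list Gpx4, which reduces lipid peroxides, differed by -0.22 and Srxn1, a sulfiredoxin, by 0.16, each without overlap. Dbp, a clock output factor, differed by 0.22 (adjusted p = 0.216) and Cry2 and Per3 of the clock by 0.14 and 0.20, also with exposed arrays higher throughout. Of all genes 2.58% lay higher and 1.61% lower without overlap.

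**Figure D5:**
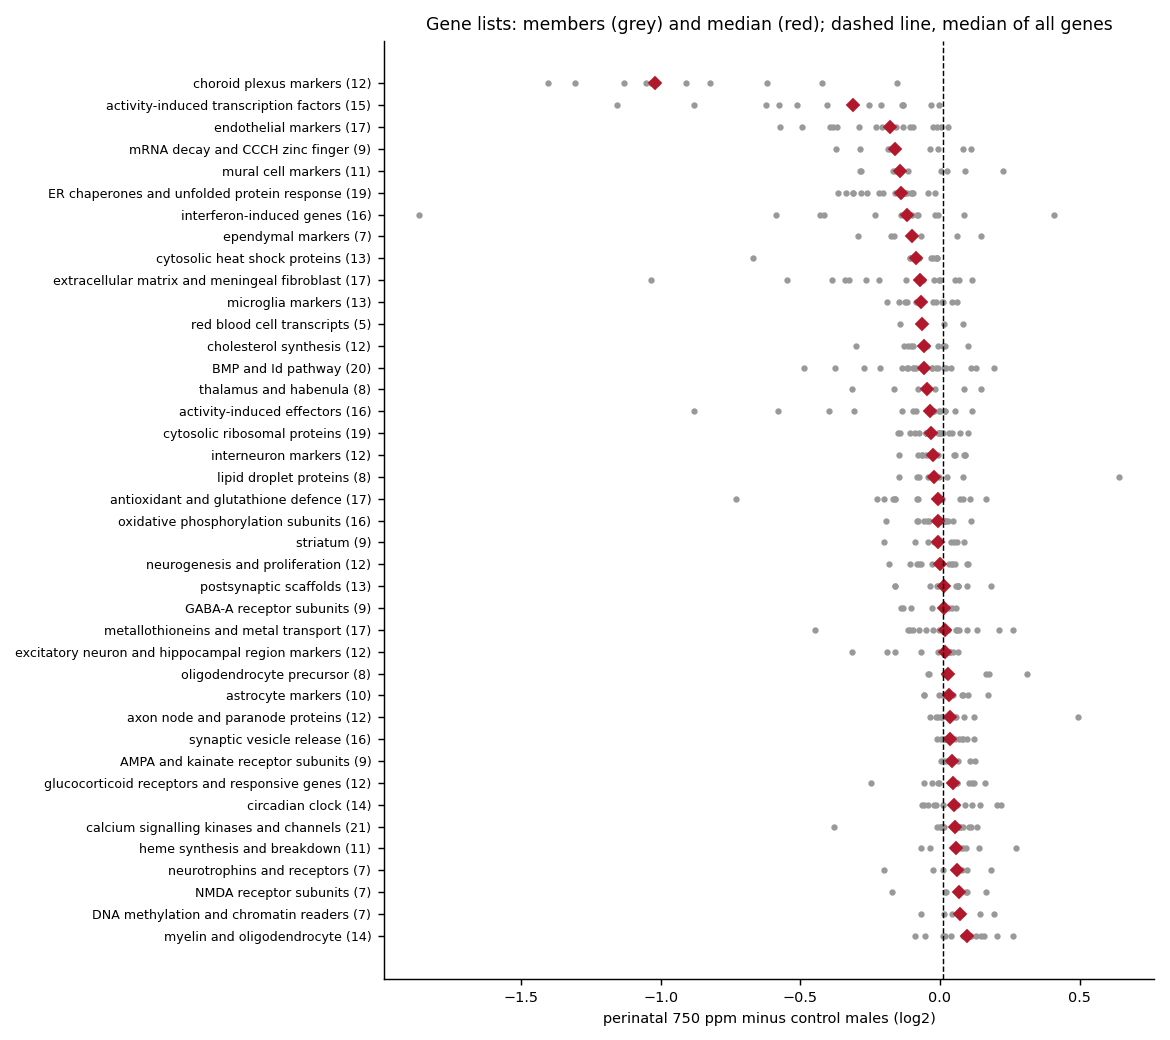
Log2 difference (x axis), perinatal 750 ppm males minus control males, for the measured members (grey) and the median (red diamond) of the 40 gene lists (y axis, number measured in parentheses); the dashed line is the median of all genes, 0.01. The choroid plexus list lies at -1.02, the activity-induced transcription factors at -0.31 and the endothelial list at -0.18, while myelin lies highest at 0.10.

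Sex was asked by subtracting the difference between perinatal 750 ppm and control females from that in males. Exposed females were titled 1978 to 1981, next to the controls at 1970 to 1977, while exposed males were titled 3444 to 3447. Anything that went with the title numbers therefore cannot be told apart from sex in this test. The sex interaction was called for 6 probe sets (0.0205%), all with the lower effect in males, and for 13 without exposed male replicate 3. Id1 had an effect of -0.38 in males and 0.23 in females, an interaction of -0.60 (SE 0.11, adjusted p = 0.0095). It read 7.70, 7.77, 7.59 and 7.64 in exposed females, against 7.37, 7.60, 7.48 and 7.34 in control females, which overlap by a narrow margin. Nat8f1, an acetyltransferase-family gene, read 5.97, 6.43, 6.25 and 6.14 in exposed males, against 6.93, 6.59, 6.70 and 6.79 in control males. In females it read 7.47, 7.70, 7.46 and 7.56 with exposure, against 6.93, 7.06, 7.02 and 6.87 without. The groups lay apart in opposite directions, with effects of -0.56 in males and 0.58 in females and an interaction of -1.14 (SE 0.18, adjusted p = 0.00399). The other 4 probe sets are each shared by several major urinary protein genes, and their differences in males were -0.23 to -0.16 against 0.77 to 1.77 in females. These 4 were among the dimmest 40% of probe sets. Female control replicates 1 and 3 and male control replicate 4 carry sex labels in doubt. Without these 3 arrays the interaction was -0.59 for Id1 (adjusted p = 0.204) and -1.13 for Nat8f1 (adjusted p = 0.103), and 2 of the 6 were called, both of them urinary protein probe sets. In a fit of the 4 compared groups alone only Nat8f1 of the 6 was called (adjusted p = 0.00792), with 0.0874 for Id1 and 0.0874 to 0.343 for the urinary protein probe sets. Id1 also missed the threshold without exposed male replicate 4 (0.0546) and without female control replicate 4 (0.0507).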

How the data were processed

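The data were log2 signals from Affymetrix whole-transcript rat gene arrays, as deposited by the authors. The submitters' processing notes name RMA, a method of background correction, quantile equalisation and probe summary, together with Partek, and give no version or setting. The deposited log2 values were used unchanged, and 0 columns of per-sample values were left unused. Samples were grouped by their labels. Gene symbols came from the platform annotation, with 15279 of 15310 single-symbol probe sets matched to RefSeq (GRCr8) by Entrez ID. A further 323 probe sets had several symbols and 13581 had none. The brightest probe set on average stood for a gene in the lists, which gave 14506 genes.

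Group means for all 10 groups were fitted over the 40 arrays with limma 3.58.1 (R 4.3.3, statmod 1.5.0), using eBayes with a variance trend. Tests were two-sided, with Benjamini-Hochberg adjustment over probe sets in each of 4 contrasts. The script was tested on simulated data. Members and the 40 gene lists (496 of 558 genes measured) were chosen with earlier results of these data known. Named were all called probe sets, the 8 higher and 8 lower uncalled genes of smallest p without overlap, up to 4 list members of smallest p with those a description needs, genes often studied in lead toxicology, and the 5 higher and 5 lower genes of each other contrast. Alternatives were fits of the compared groups only, a filter on dim probe sets, 2 further normalizations, array weights, other variance moderation and leaving out arrays. Tables and figures used Python 3.11.15, pandas 2.3.3, numpy 2.4.6 and matplotlib 3.10.9. The number of arrays limits the precision.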

Additional observations from a re-analysis of the deposited data

Results flagged for a closer look

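The interaction test of perinatal 750 ppm with sex called 6 probe sets. Title numbers of the exposed males and exposed females also differed, so sex cannot be told apart from what went with the numbers. The interaction (males minus females) was -0.60 for Id1, -1.14 for Nat8f1, -1.0 for probe set 10877229, -0.99 for 10877251, -1.98 for 10877286 and -1.93 for 10877295. The last 4 are shared by several major urinary protein genes. These calls were not stable. In a fit of the compared groups alone limma kept only Nat8f1 of the 6 (adjusted p = 0.00792, with 0.0874 to 0.343 for the others), and without the 3 controls whose sex label is in doubt it kept 10877286 (0.00826) and 10877295 (0.00689).

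In 12 of 224 groups of 4 arrays (112 named probe sets in exposed and in control males), 1 array lay far from the other 3, where chance gives about 1 in 20. Among exposed males, replicate 1 was lowest for Dusp6 (9.0), Ifi44 (6.74) and Aldoc, a glycolytic enzyme of astrocytes (12.21), and highest for Uhrf1, a DNA methylation factor (7.11). Replicate 2 was lowest for Aldh1l1, an astrocyte enzyme (8.01). Replicate 3 was highest for Cx3cr1, a microglial receptor (10.39), and lowest for Slc11a2, a divalent metal transporter (9.02). Replicate 4 was highest for Slc39a8, a zinc and manganese importer (7.09). Among control males, replicate 4 was highest for Slc39a8 (8.15) and Camk2a (12.96), and replicate 3 was lowest for Per3 (8.34) and probe set 10761897 (8.93).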

How the results depend on the processing

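The number of called probe sets depended on the arrays in the fit. Fits of the compared groups only gave 2 calls against controls (17 in the fit of all groups), 7 against 250 ppm (12), 4 against postnatal exposure (51) and 3 for the sex interaction (6). Array weights gave 10 against controls and 0 against 250 ppm, where limma had 1465 probe sets at an unadjusted p under 0.05. Leaving out the dimmest 40% of probe sets gave 2 for the interaction, Id1 and Nat8f1. The urinary protein probe sets were themselves among those left out. Without the 3 mismatched controls there were 5 calls against controls and 2 for the interaction. Without the 3 flattened arrays there were 0, 1 and 14 calls against controls, 250 ppm and postnatal exposure, and without all 6, a setting chosen after seeing the data, 0 (1933 at an unadjusted p under 0.05), 1, 8 and 2 for the interaction. Leaving out each array in turn gave 4 to 22 calls against controls, 3 to 21 against 250 ppm, 15 to 327 against postnatal exposure and 5 to 13 for the interaction. Against controls the lowest was without exposed replicate 1 and the highest without exposed replicate 3. The cause was not tested.

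Of the 17 called probe sets none reversed under any setting. Fbln2 and Tmem176b stayed past the threshold in 15 of 18 settings and Txnip in 4 of 18. Reversals touched uncalled genes near 0. Leaving out each array gave -0.0031 (without control replicate 1) to 0.0533 for Grin2b, -0.0018 (without control replicate 3) to 0.0382 for Grin2a and -0.0882 to 0.0116 for Ldah, above 0 without control replicate 4 or exposed replicate 1. Ldah also reversed without the mismatched controls (0.0091), the flattened arrays (0.0116) and all 6 (0.0618), and Bdnf (0.0209) and Gfap (0.0364) without all 6. The activity-induced transcription factors had medians of -0.38 to -0.26 and the ER list -0.18 to -0.11 over 19 settings. No paired analysis was possible because the labels give no replicate numbers that groups share.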

Other observations

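Further genes separated the groups without being called. In exposed males every array was higher for Prss12, the synaptic protease neurotrypsin (0.58, adjusted p = 0.0913), Iffo1 (0.23, adjusted p = 0.0807), Cldn34e (0.83), Lyrm1 (0.29), Relt (0.24), Nup93 of the nuclear pore (0.26), Abca15 (0.30) and Il4r, the interleukin 4 receptor (0.30). Every array was lower for Cacybp, a calcyclin-binding protein (-0.25, adjusted p = 0.0807), Polr3k, a subunit of RNA polymerase III (-0.53, adjusted p = 0.103) and the kinase gene Prkx (-0.27, adjusted p = 0.163). Groups without overlap made up 2.58% of all genes in the higher and 1.61% in the lower direction.

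On all 40 arrays, 4 probe sets had every exposed male outside the range of the other 36, 2 above and 2 below (0.00685% each). Above were Srm, the spermidine synthase, with 10.58, 10.62, 10.56 and 10.58 in exposed males against at most 10.54 elsewhere, and probe set 10894806. Below were Tmem176b and Atxn3, the deubiquitinase ataxin 3, with 7.67, 7.74, 7.73 and 7.73 in exposed males against at least 7.77 elsewhere. Of the 4, only Tmem176b was called against controls, and the differences of Srm (0.16) and Atxn3 (-0.12) had adjusted p of 0.416 and 0.529. These genes were singled out after their values were seen.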
